A study of Homo sapiens with 8 samples.

Results

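The transcription factors, cadherins and intermediate filament that define the epithelial-mesenchymal transition (EMT) were followed in BT-549, an established mesenchymal triple negative breast cancer (TNBC) cell line. The genes were SNAI1, SNAI2, TWIST1, ZEB1, ZEB2, PRRX1, CDH1, CDH2, CDH11 and VIM. They were taken by symbol from the deposited counts, and all 10 were found among the 23228 genes listed. Cells had received vehicle (DMSO), the leukemia inhibitory factor receptor (LIFR) inhibitor EC359 at 100 nM, the histone deacetylase (HDAC) inhibitor vorinostat at 10 µM, or both drugs together (the combination), each for 24 h. Each group held 2 RNA-seq libraries, 8 in all, of a single line grown in culture. The study describes its in vitro assays in general as biological replicates, but the labels do not say that the libraries of a group came from separate cultures. The p-values measure the spread between these libraries, which may be technical.

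EMT is the program by which epithelial cells give up their cell-cell junctions and keratins for a spindle shape, vimentin filaments and motility. The SNAIL, TWIST and ZEB proteins bind E-box sequences and repress epithelial genes, above all CDH1, which encodes E-cadherin, and they do so in part by recruiting corepressor complexes that contain HDACs. PRRX1 is a homeobox factor of embryonic mesenchyme that can also drive EMT. In the classical cadherin switch, E-cadherin gives way to N-cadherin (CDH2) or to the mesenchymal cadherin CDH11.

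The libraries held 19069450 to 24759041 counts on genes. Levels are given as normalized CPM, counts relative to a library size scaled by the TMM method. Differences are log2 fold changes ± SE from edgeR's quasi-likelihood test, and p-values were adjusted (Benjamini-Hochberg) across all 13694 tested genes. A gene was called when its adjusted p was under 0.01 and its absolute log2 fold change over 1, and the verbs rose and fell are kept for an adjusted p under 0.01. Replicates differed most within EC359, where their log2 difference had an SD of 0.563 over genes, against 0.312 to 0.448 in the other groups. The test uses an estimate of the spread that all groups share, which may understate the spread within EC359. The label of the line was checked first: ESR1, the estrogen receptor, and PGR, the progesterone receptor, had 0 counts in both vehicle libraries, which allows up to 3 counts in each, and did not exceed 20 and 1 counts in any library. ERBB2, the HER2 receptor, was at 96.1 and 102 CPM in vehicle. Of the markers of other cell types, the leukocyte gene PTPRC did not exceed 0.708 CPM, the endothelial gene PECAM1 did not exceed 0.204 CPM and the endothelial cadherin CDH5 did not exceed 0.298 CPM in any library. In bulk RNA, fewer cells that express a gene and less RNA per cell cannot be told apart.

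The vehicle-treated cells carried a mesenchymal set of these genes. Per kilobase of the longest annotated transcript, VIM stood first at 792 ± 29.1 CPM per kb (SD, n = 2), followed by SNAI2 at 75.4 ± 9.03 CPM per kb. CDH11 at 42.6 ± 1.53 and TWIST1 at 41.5 ± 0.941 CPM per kb overlapped between libraries and had no order beyond their spread. PRRX1 followed at 33.5 ± 2.65 and ZEB1 at 13.4 ± 0.615 CPM per kb. CDH2 at 5.90 ± 0.333 and ZEB2 at 5.53 ± 0.696 CPM per kb overlapped as well. SNAI1 was low at 1.78 ± 0.0452 CPM per kb, and CDH1 came last at 0.0537 ± 0.00730 CPM per kb.

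Vorinostat rearranged this order. SNAI1 moved from the ninth place to the third at 38.6 ± 0.461 CPM per kb, while PRRX1 moved from the fifth place to the ninth at 0.932 ± 0.133 CPM per kb, where it overlapped ZEB2 at 1.03 ± 0.0589 CPM per kb. In the combination VIM, SNAI2 and SNAI1 held the upper 3 places at 3517 ± 35.3, 129 ± 7.01 and 43.8 ± 5.62 CPM per kb, and the TWIST1 libraries, at 8.26 and 9.46 CPM per kb, spanned those of CDH11 and CDH2. Under EC359 the neighbours PRRX1 and ZEB1 overlapped, as did ZEB1 and CDH11, and ZEB2 and CDH2. The order depends on the length assigned to a gene, since with the median transcript length 5 of the 10 genes took another place in vehicle, 2 under EC359, 7 under vorinostat and 4 in the combination.

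**Figure D1:**
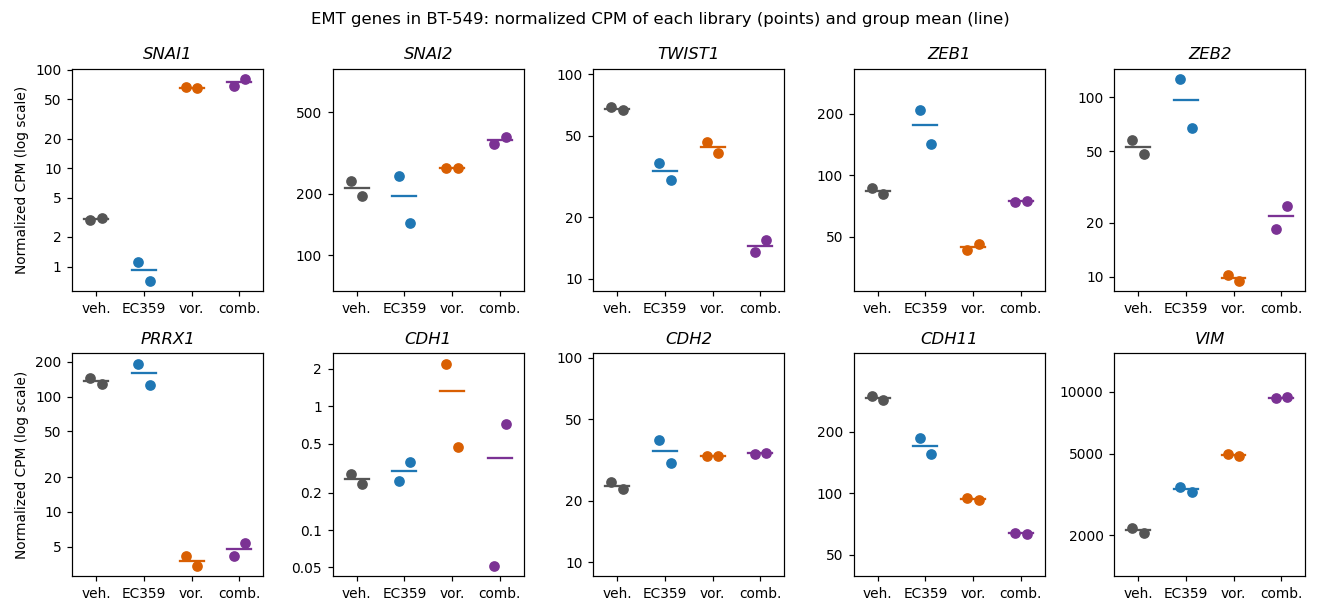
Normalized CPM of the 10 EMT genes in each of the 8 BT-549 libraries, on log axes whose range differs between panels, with a point per library and a line at the group mean (n = 2). SNAI1 sits between 0.710 and 3.08 CPM without vorinostat and between 65.3 and 81.4 CPM with it, PRRX1 shows the opposite pattern, and the VIM libraries climb from 2056 CPM in vehicle to 9442 CPM in the combination.

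Against this background the first question was what each drug did to the EMT factors on its own. EC359 called 3 of the 10 genes against vehicle, ZEB1 higher and SNAI1 and TWIST1 lower, where 1.94% of all tested genes were called higher and 1.72% lower. Without the fold threshold 5 of 10 passed, beside 7.82% of all genes. The median absolute log2 fold change was 0.72 over the 10 genes and 0.27 over all genes. Vorinostat called 5 of 10, SNAI1 and VIM higher and PRRX1, ZEB2 and CDH11 lower, against a background of 16.8% of genes higher and 13.3% lower. At any fold change 7 of 10 passed, beside 52.1% of all genes, and the median absolute log2 fold change was 1.43 against 0.71. The combination called 6 of 10 against vehicle, SNAI1 and VIM higher and PRRX1, TWIST1, CDH11 and ZEB2 lower, where 19.5% of all genes were called higher and 15.3% lower. At any fold change 8 of 10 passed, beside 56.4% of all genes, with medians of 1.72 and 0.80. These comparisons share the vehicle libraries, so their values are set side by side and not compared as independent results.

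**Figure D2:**
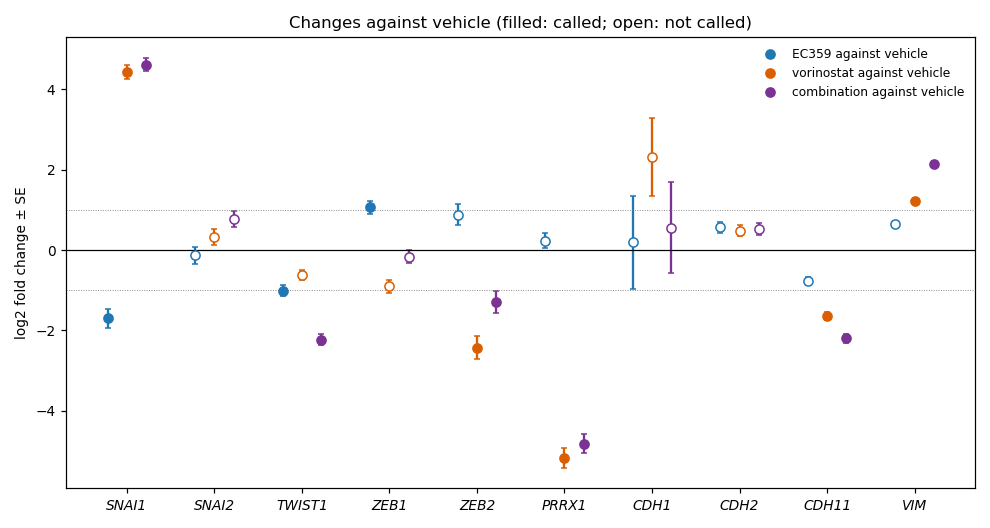
Log2 fold change against vehicle ± SE of the 10 EMT genes under EC359, vorinostat and the combination, with filled points for called genes and dotted lines at a log2 fold change of 1 in either direction. SNAI1 at 4.62 in the combination and PRRX1 at -5.17 under vorinostat mark the ends of the range, and CDH1 has the widest error bars.

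SNAI1 (chr20:48599517-48605423, plus strand, GRCh37) encodes Snail, a zinc finger repressor of CDH1. It was at 2.97 and 3.08 CPM in vehicle, 1.11 and 0.710 CPM under EC359, 66.5 and 65.3 CPM under vorinostat, and 67.9 and 81.4 CPM in the combination. The groups with and without vorinostat did not overlap, and the EC359 libraries were the lowest of the 8. Vorinostat raised SNAI1 21.7-fold, a log2 fold change of 4.44 ± 0.17 (adjusted p = 2.2e-07, edgeR). In the combination it stood 24.6-fold above vehicle, at 4.62 ± 0.17 (adjusted p = 7.9e-08, edgeR). EC359 alone lowered it 3.25-fold, at -1.70 ± 0.24 (adjusted p = 0.0014, edgeR). The EC359 call was lost without vehicle replicate 1 or 2, although the change stayed at -1.72 or -1.67. With the EC359 and vehicle libraries fitted alone the adjusted p was 0.0408 (edgeR), the highest over all alternatives.

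SNAI2 (chr8:49830157-49834299, minus strand) encodes Slug, the close relative of Snail, and was the more abundant of the pair. It was at 231 and 195 CPM in vehicle, 245 and 144 CPM under EC359, 269 and 268 CPM under vorinostat, and 352 and 380 CPM in the combination. The EC359 libraries lay on either side of the vehicle libraries, and the combination libraries were above all the others. SNAI2 rose in the combination against vehicle by 0.78 ± 0.21 on the log2 scale, an adjusted p of 0.0080 that did not reach the fold threshold (edgeR), and leaving out any 1 of the 4 libraries moved this p to between 0.0229 and 0.0703. Neither EC359 at -0.13 ± 0.21 (adjusted p = 0.71, edgeR) nor vorinostat at 0.33 ± 0.21 (adjusted p = 0.18, edgeR) passed against vehicle. The makeup of the pair shifted with SNAI1: per kilobase, SNAI1 made up 2.09% and 2.55% of SNAI1 plus SNAI2 in vehicle, 0.747% and 0.811% under EC359, 29.1% and 28.8% under vorinostat, and 24.2% and 26.2% in the combination. SNAI3, the third SNAIL gene, had 0 and 2 counts in vehicle and 137 and 134 counts under vorinostat.

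TWIST1 (chr7:19060614-19157259, minus strand) encodes a basic helix-loop-helix factor of mesoderm and of metastatic EMT. Its levels were 68.7 and 66.6 CPM in vehicle, 36.7 and 30.4 CPM under EC359, 46.7 and 41.2 CPM under vorinostat, and 13.5 and 15.4 CPM in the combination. No groups overlapped, and the combination lay below either drug alone. TWIST1 fell under EC359 at -1.01 ± 0.13 (adjusted p = 9.1e-04, edgeR) and under vorinostat at -0.62 ± 0.13 (adjusted p = 0.0022, edgeR). In the combination it was 4.68-fold below vehicle, at -2.23 ± 0.14 (adjusted p = 1.2e-06, edgeR). The EC359 value lies at the fold threshold, so that without EC359 replicate 2 it was -0.87 and no longer called, and without vehicle replicate 1 or 2 the adjusted p was 0.0154 or 0.0128 (1.23e-08 to 0.0154 over all alternatives). It was also not called with RLE scaling, DESeq2 or no filter on low counts, where it was just under the threshold at -0.9968, -0.9969 and -0.9884, nor with the 4 libraries fitted alone, at -0.9870 with an adjusted p of 0.0149. The vorinostat value passed 0.01 no longer without vehicle replicate 1 (0.0196), vehicle replicate 2 (0.0137) or vorinostat replicate 2 (0.0292), the highest of its alternatives, which began at 1.45e-05. TWIST2, its close relative, was at 11.5 and 11.4 CPM in vehicle and 1.90 and 2.04 CPM under vorinostat, where it fell by 2.54 ± 0.31 on the log2 scale (adjusted p = 8.9e-05, edgeR).

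ZEB1 (chr10:31607424-31818742, plus strand) and ZEB2 (chr2:145121931-145278624, minus strand) encode large zinc finger homeobox repressors that are usually described together. ZEB1 was at 86.2 and 80.8 CPM in vehicle, 208 and 142 CPM under EC359, 43.2 and 46.1 CPM under vorinostat, and 74.2 and 75.0 CPM in the combination. ZEB2 was at 57.7 and 48.3 CPM in vehicle, 127 and 67.3 CPM under EC359, 10.2 and 9.44 CPM under vorinostat, and 18.5 and 24.8 CPM in the combination. In both genes the EC359 libraries were the highest and the vorinostat libraries the lowest, without overlap. ZEB1 rose under EC359 by 1.07 ± 0.16 (adjusted p = 0.0021, edgeR) and fell under vorinostat to -0.90 ± 0.16 (adjusted p = 9.7e-04, edgeR). In the combination it was not told apart from vehicle at -0.16 ± 0.16 (adjusted p = 0.38, edgeR). ZEB2 fell under vorinostat 5.39-fold, at -2.43 ± 0.29 (adjusted p = 7.9e-05, edgeR), and in the combination to -1.29 ± 0.27 (adjusted p = 0.0024, edgeR). Its EC359 value of 0.88 ± 0.26 did not pass (adjusted p = 0.051, edgeR).

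The EC359 replicates differed for both ZEB genes. Without EC359 replicate 1 the ZEB1 change under EC359 was 0.77 and not called, and without vehicle replicate 1 or 2 its adjusted p was 0.0238 or 0.0344 (2.34e-08 to 0.0344 over all alternatives). Without vorinostat replicate 1 the adjusted p of ZEB1 under vorinostat was 0.0110, the highest of its alternatives, which began at 2.35e-07. The ZEB2 change under EC359 ranged from 0.35 without EC359 replicate 1 to 1.27 without EC359 replicate 2, where it was called (adjusted p of 1.85e-05 to 0.283 over all alternatives, edgeR). The ZEB2 call in the combination against vehicle was lost without vehicle replicate 1 (adjusted p of 0.0186) or combination replicate 1 (0.0280, edgeR). Per kilobase, ZEB2 made up 30.4% and 28.0% of ZEB1 plus ZEB2 in vehicle, 28.5% and 23.6% under EC359, 13.4% and 11.8% under vorinostat, and 14.0% and 17.8% in the combination. ZEB1 is overlapped on the other strand by the exons of ZEB1-AS1, an antisense RNA gene, and no source used here gives the strand setting of the counting, so reads of the overlap cannot be assigned to either gene with certainty. In the annotation, exons of antisense genes also lie across SNAI2, TWIST1, ZEB2, CDH1, CDH2 and VIM, and those genes were not analysed here. ZEB1-AS1 rose under vorinostat by 0.90 ± 0.15 (adjusted p = 6.4e-04, edgeR), where ZEB1 fell, going from 10.7 and 8.69 CPM in vehicle to 14.0 and 12.1 CPM under EC359, 18.1 and 18.2 CPM under vorinostat, and 22.2 and 21.3 CPM in the combination.

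PRRX1 (chr1:170631869-170708562, plus strand) had the deepest loss of the 10 genes. It was at 144 and 128 CPM in vehicle, 193 and 127 CPM under EC359, 4.17 and 3.40 CPM under vorinostat, and 4.20 and 5.41 CPM in the combination. All 4 libraries with vorinostat were far below the other 4, and the EC359 libraries overlapped the vehicle libraries. Vorinostat lowered PRRX1 36.1-fold, at -5.17 ± 0.24 (adjusted p = 4.2e-07, edgeR), and the combination 28.3-fold, at -4.82 ± 0.24 (adjusted p = 3.4e-07, edgeR). EC359 alone gave 0.24 ± 0.19 (adjusted p = 0.43, edgeR).

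Promoter sequences are shown for the ZEB genes, which both fell under vorinostat, and for PRRX1 and VIM, which moved furthest down and up among the genes with a RefSeq promoter at hand. RefSeq windows on GRCh38.p14 were matched for 5 of the 10 genes, namely ZEB1, ZEB2, PRRX1, CDH2 and VIM. SNAI1, SNAI2, TWIST1, CDH1 and CDH11 were not matched. Each line gives the 250 bases before the most upstream start listed, 5′ to 3′ on the strand of the gene, with the E-box CAGGTG or its complement CACCTG in capitals, the form that SNAIL and ZEB proteins bind. The windows are chr10:31318167-31318416 (plus strand) for ZEB1, chr2:144520120-144520369 (minus strand) for ZEB2, chr1:170663881-170664130 (plus strand) for PRRX1 and chr10:17227991-17228240 (plus strand) for VIM.
ZEB1: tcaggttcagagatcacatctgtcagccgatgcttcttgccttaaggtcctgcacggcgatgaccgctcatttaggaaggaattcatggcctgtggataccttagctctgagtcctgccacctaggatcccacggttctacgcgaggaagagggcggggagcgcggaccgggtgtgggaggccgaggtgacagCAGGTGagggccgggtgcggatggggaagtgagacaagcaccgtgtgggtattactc
ZEB2: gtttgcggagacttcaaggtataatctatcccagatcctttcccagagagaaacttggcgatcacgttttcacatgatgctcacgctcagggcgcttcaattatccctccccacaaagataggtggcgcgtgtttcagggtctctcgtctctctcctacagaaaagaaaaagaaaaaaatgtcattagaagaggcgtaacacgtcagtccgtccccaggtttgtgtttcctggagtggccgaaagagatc
PRRX1: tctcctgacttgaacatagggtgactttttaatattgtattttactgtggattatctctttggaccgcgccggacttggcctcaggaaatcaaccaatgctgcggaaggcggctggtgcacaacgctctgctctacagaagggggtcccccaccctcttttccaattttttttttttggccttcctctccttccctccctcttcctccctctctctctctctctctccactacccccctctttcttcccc
VIM: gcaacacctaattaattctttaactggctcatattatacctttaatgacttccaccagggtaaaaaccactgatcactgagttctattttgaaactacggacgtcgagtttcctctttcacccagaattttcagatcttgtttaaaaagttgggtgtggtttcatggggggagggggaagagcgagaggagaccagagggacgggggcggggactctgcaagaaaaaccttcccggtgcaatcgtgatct

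The ZEB1 window held 1 match of the E-box, 57 bases before the start, and the ZEB2, PRRX1 and VIM windows held 0. Of all 35116 RefSeq promoter windows of this length, 17.5% held a match. The guanine and cytosine content was 59.2% in the ZEB1 window, 48.0% in ZEB2, 50.8% in PRRX1 and 46.0% in VIM, with a median of 58.0% over all windows. The CG dinucleotide occurred 15 times in ZEB1, 12 in ZEB2, 6 in PRRX1 and 8 in VIM, with a median of 11. Of the windows at other ZEB1 starts, the 300-base window at chr10:31318966-31319265 held 3 matches, and the remaining windows at ZEB1 starts held 0. Of all windows of that length, 20.6% held any match and 3.49% held 2 or more. A match describes these letters and no binding was measured.

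The cadherins came next. CDH1 (chr16:68771195-68869440, plus strand), the gene of E-cadherin and the classical target of the factors above, was close to absent in every group. Its counts were 6 and 5 in vehicle, 6 and 7 under EC359, 43 and 11 under vorinostat, and 1 and 14 in the combination, or at most 2.21 CPM. The replicates of both groups with vorinostat lay far apart, and the combination libraries lay on either side of the vehicle libraries. No comparison passed, and the nearest, vorinostat against vehicle, gave 2.32 ± 0.98 (adjusted p = 0.062, edgeR), which went from 0.84 without vorinostat replicate 1 to 3.06 without vorinostat replicate 2 (adjusted p of 0.0112 to 0.587 over all alternatives, edgeR). CDH1 passed the filter on low counts through 1 library of each group with vorinostat, namely vorinostat replicate 1 and combination replicate 2.

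Other epithelial genes varied between the same replicates. KRT8, a keratin of simple epithelia, was at 1.13 and 1.54 CPM in vehicle, 3.30 and 4.46 under EC359, 9.67 and 4.68 under vorinostat, and 1.33 and 9.19 in the combination. EPCAM, an epithelial adhesion molecule, was at 4.27 and 2.13 CPM under vorinostat and 0.461 and 3.57 CPM in the combination. CDH17, an intestinal cadherin, had 107 counts in vorinostat replicate 1 and 2 counts in vorinostat replicate 2. Its counts were 18 and 18 under EC359 and only 1 and 3 in the combination. Of the 20 epithelial markers listed, 15 were higher in vorinostat replicate 1 than in replicate 2 and 5 were lower. In the combination 3 were higher in replicate 1 and 16 in replicate 2, with 10 of them at least 2-fold higher there. Under EC359 13 were higher in replicate 1 and 7 in replicate 2, and in vehicle 11 and 8. The summed level of the 20 markers was 74.8 to 77.3 CPM in vehicle, 52.3 to 57.3 under EC359, 220.0 to 237.6 under vorinostat and 177.7 to 196.7 in the combination. CD24 and LLGL2 made up most of it in vehicle, vorinostat and the combination, and without them the sums were 21.2 to 23.2, 33.9 to 40.8, 34.2 to 50.5 and 21.4 to 53.0 CPM. None of the 20 was at 0 in all 8 libraries, and 4 stayed under 1 CPM in all of them. The part of these library differences in the CDH1 values was not tested.

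**Figure D3:**
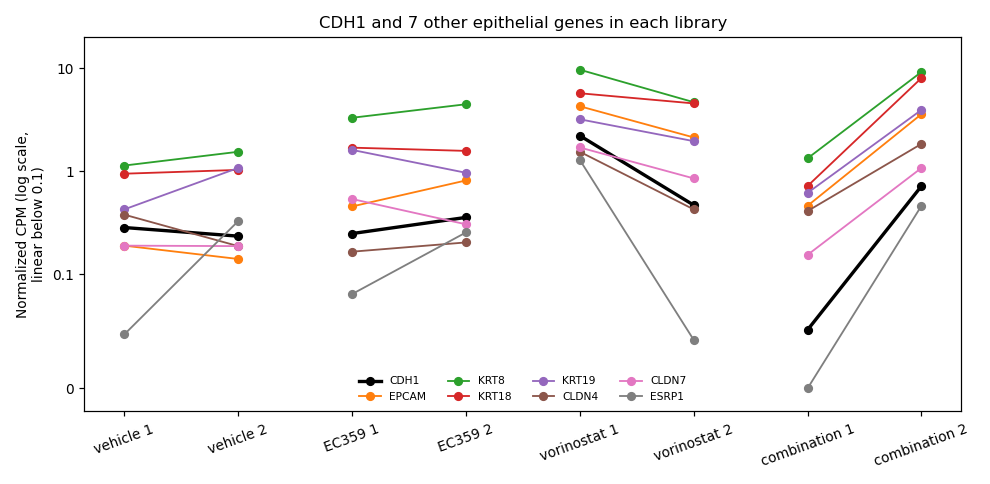
Normalized CPM of CDH1 (black) and 7 other epithelial genes in each library, on a log axis that is linear below 0.1 CPM, with a line joining the libraries of a group. The 7 genes were chosen after their values were seen, so their common direction may follow from the choice. Markers that went the other way are not shown. All 8 genes are higher in vorinostat replicate 1 than in replicate 2 and lower in combination replicate 1 than in replicate 2, and CDH1 stays between 0.0512 and 2.21 CPM.

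CDH2 (chr18:25512843-25757910, minus strand), the gene of N-cadherin, was at 24.6 and 22.7 CPM in vehicle, 39.5 and 30.5 CPM under EC359, 33.0 and 33.0 CPM under vorinostat, and 34.0 and 34.3 CPM in the combination. Every treated library was above the vehicle libraries by a small amount. CDH2 rose in the combination by 0.53 ± 0.14 on the log2 scale (adjusted p = 0.0078, edgeR), below the fold threshold, while EC359 at 0.56 ± 0.14 (adjusted p = 0.024, edgeR) and vorinostat at 0.48 ± 0.14 (adjusted p = 0.013, edgeR) did not pass. The combination value no longer passed when any 1 of its 4 libraries was left out (adjusted p of 0.0308 to 0.0670, edgeR).

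CDH11 (chr16:64977656-65160015, minus strand), the gene of a mesenchymal cadherin first described in osteoblasts, fell in steps. It was at 300.1 and 285 CPM in vehicle, 186 and 155 CPM under EC359, 94.9 and 92.8 CPM under vorinostat, and 64.3 and 63.3 CPM in the combination. The groups did not overlap. CDH11 fell under EC359 at -0.78 ± 0.10 (adjusted p = 0.0011, edgeR), under vorinostat 3.12-fold at -1.64 ± 0.11 (adjusted p = 2.1e-06, edgeR), and in the combination 4.59-fold at -2.20 ± 0.11 (adjusted p = 3.4e-07, edgeR). Without vehicle replicate 1 or 2 the adjusted p under EC359 was 0.0203 or 0.0137, within 4.14e-08 to 0.0285 over all alternatives. Per kilobase, CDH2 therefore made up 12.3% and 12.01% of CDH2 plus CDH11 in vehicle and 26.6% and 25.2% under EC359. It made up 37.3% and 37.8% under vorinostat and 47.5% and 48.1% in the combination. These shares use the longest transcripts, of 4016 bases for CDH2 and 6874 for CDH11, where the median lengths are 3143 and 569 bases. The size of these shares, and of the SNAI1 and ZEB2 shares above, depends on the length chosen, while the order of the libraries does not.

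**Figure D4:**
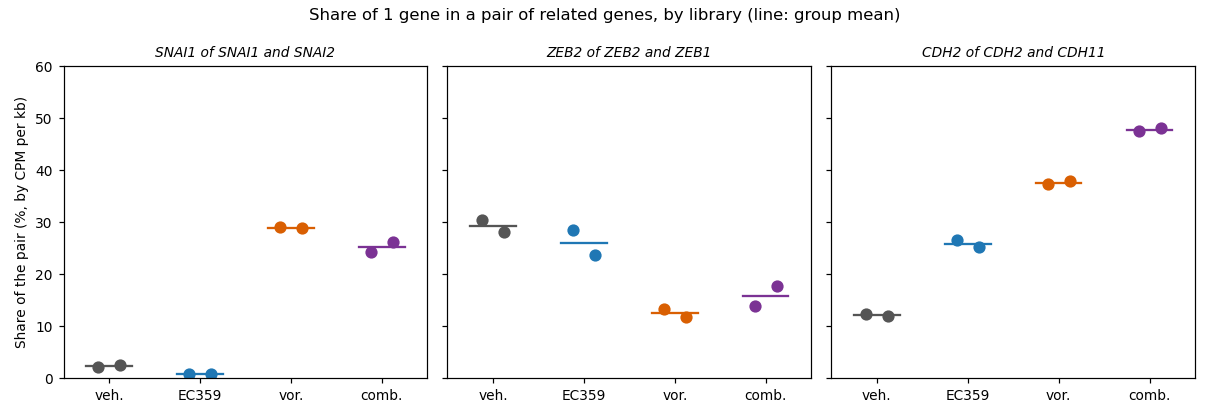
Share of SNAI1 in SNAI1 plus SNAI2, of ZEB2 in ZEB1 plus ZEB2 and of CDH2 in CDH2 plus CDH11, in percent of CPM per kilobase, with a point per library and a line at the group mean (n = 2). The SNAI1 share goes from 2.09% and 2.55% in vehicle to 29.1% and 28.8% under vorinostat, and the CDH2 share climbs from 12.01% in vehicle to 48.1% in the combination. Lengths are those of the longest annotated transcript, and the size of each share depends on them.

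VIM (chr10:17270240-17279592, plus strand), the gene of the intermediate filament vimentin and the usual mesenchymal marker, rose under every treatment. It was at 2166 and 2056 CPM in vehicle, 3419 and 3258 CPM under EC359, 4965 and 4888 CPM under vorinostat, and 9309 and 9442 CPM in the combination. The libraries of a group lay close together and no groups overlapped. VIM rose under EC359 by 0.66 ± 0.07 (adjusted p = 2.4e-04, edgeR), under vorinostat by 1.22 ± 0.07 (adjusted p = 1.0e-06, edgeR) and in the combination 4.44-fold by 2.15 ± 0.07 (adjusted p = 5.2e-08, edgeR). It took 0.219% and 0.209% of the counts on genes in vehicle and 0.888% and 0.911% in the combination. With the EC359 and vehicle libraries fitted alone the adjusted p under EC359 was 0.0172, within 3.4e-11 to 0.0172 over all alternatives.

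The next question was what EC359 added to vorinostat. TWIST1 was the 1 gene of 10 called in the combination against vorinostat, lower, where 3.37% of all genes were called higher and 0.876% lower. At any fold change 4 of 10 passed, beside 13.7% of all genes. TWIST1 fell 3.04-fold, at -1.60 ± 0.14 (adjusted p = 7.7e-05, edgeR). VIM rose by 0.93 ± 0.07 (adjusted p = 3.0e-05, edgeR), ZEB1 rose by 0.74 ± 0.16 (adjusted p = 0.0098, edgeR) and CDH11 fell to -0.56 ± 0.10 (adjusted p = 0.0050, edgeR). These 4 genes moved in the direction EC359 gave them without vorinostat. ZEB2 gave 1.14 ± 0.29 and did not pass (adjusted p = 0.019, and 3.87e-04 to 0.143 over its alternatives, edgeR). Leaving out any 1 of the 4 libraries moved the adjusted p of ZEB1, which RLE or total-count scaling also moved to 0.0130 or 0.0111 and the replicate block to 0.0116, to between 0.0650 and 0.0993 and that of CDH11 to between 0.0308 and 0.0409.

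The remaining genes did not pass in this comparison. SNAI1 gave 0.18 ± 0.13 (adjusted p = 0.35, edgeR), SNAI2 0.45 ± 0.21 (adjusted p = 0.13, edgeR), PRRX1 0.35 ± 0.27 (adjusted p = 0.36, edgeR), CDH2 0.05 ± 0.14 (adjusted p = 0.83, edgeR) and CDH1 -1.76 ± 0.93 (adjusted p = 0.19, edgeR). Scaled by total counts, CDH2 was at -0.04.

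**Figure D5:**
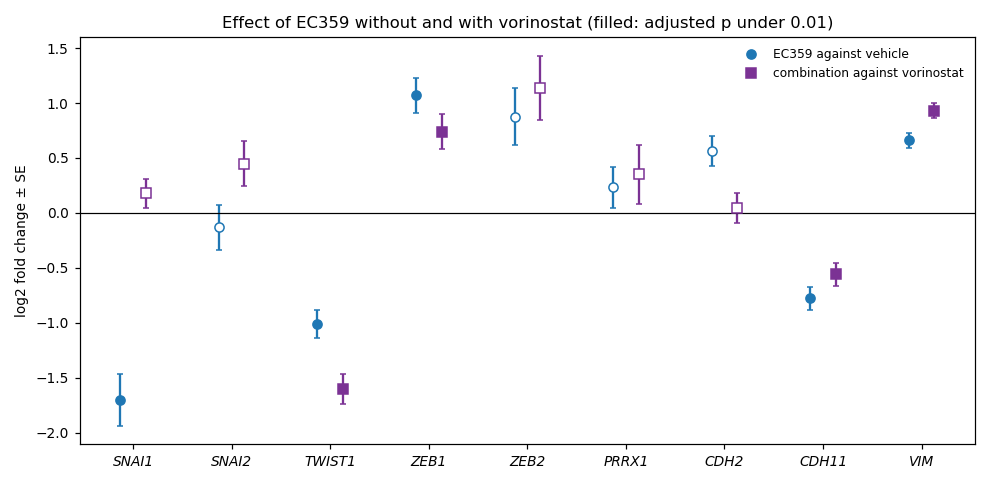
Log2 fold change ± SE of EC359 against vehicle (circles) and of the combination against vorinostat (squares) for 9 of the 10 EMT genes, with filled symbols for an adjusted p under 0.01. CDH1 is left out because its standard errors are 0.93 and 1.16. SNAI1 is at -1.70 without vorinostat and 0.18 with it, while TWIST1, ZEB1, CDH11 and VIM keep their direction.

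Whether the effect of EC359 differed with vorinostat was tested as an interaction, the log2 effect of EC359 in the presence of vorinostat minus that in its absence. SNAI1 was the 1 gene of 10 called, at 1.88 ± 0.27 (adjusted p = 0.0050, edgeR), where 1.62% of all genes were called higher and 0.482% lower. Its adjusted p was 0.0110 with the replicate number as a block, and 0.0333 and 0.0363 without vehicle replicate 1 or 2. It was 0.0398 and 0.0401 without vorinostat replicate 1 or 2, and 0.0196 and 0.0306 without combination replicate 1 or 2 (5.83e-06 to 0.0401 over all alternatives). In absolute terms, the drop under EC359 alone was from a mean of 3.03 ± 0.0771 CPM to 0.912 ± 0.285 CPM (SD, n = 2), on counts of 14 to 66 per library. TWIST1 at -0.59 ± 0.19 (adjusted p = 0.10), CDH2 at -0.52 ± 0.19 (adjusted p = 0.16) and VIM at 0.27 ± 0.10 (adjusted p = 0.14) did not pass in edgeR's test. Without EC359 replicate 2 the value was -0.73 for TWIST1 and -0.70 for CDH2, and without EC359 replicate 1 it was 0.30 for VIM. SNAI2 at 0.58 and ZEB1 at -0.33 did not pass either. SNAI2 went to 1.01 without EC359 replicate 1, and ZEB1 to -0.59 without EC359 replicate 2. With a lone EC359 library the spread comes from the other groups, whose replicates differed less, so only the sizes are given. The interactions of ZEB2 at 0.26, PRRX1 at 0.12, CDH11 at 0.22 and CDH1 at -1.96 did not pass.

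The reverse contrast, what vorinostat added to EC359, covered most of these genes. The combination called 7 of 10 against EC359, SNAI1 and VIM higher and PRRX1, ZEB2, CDH11, ZEB1 and TWIST1 lower, beside 19.8% of all genes called higher and 13.9% lower. At any fold change 8 of 10 passed, beside 55.8% of all genes. SNAI1 rose by 6.32 ± 0.20 (adjusted p = 6.4e-08, edgeR) and PRRX1 fell to -5.06 ± 0.24 (adjusted p = 3.4e-07, edgeR). ZEB2 fell to -2.17 ± 0.28 and ZEB1 to -1.23 ± 0.16, and the ZEB1 value was -0.94 and not called without EC359 replicate 1. VIM rose by 1.49 ± 0.07, CDH11 fell to -1.42 ± 0.11 and TWIST1 to -1.22 ± 0.14. SNAI2 rose by 0.91 ± 0.21 (adjusted p = 0.0036, edgeR), which became 0.0239 and 0.0389 without combination replicate 1 or 2 and was called at 1.33 without EC359 replicate 1 (1.37e-07 to 0.0389 over all alternatives). CDH2 at -0.04 and CDH1 at 0.36 did not pass.

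Lists of functionally related genes were described in the same way for vorinostat and for EC359 against vehicle. Genes near 0 in vehicle, such as SNAI3, GRHL3, ELF3, CDH15, NES, PRPH, DES and EPCAM, passed the filter on low counts through the groups with vorinostat, where they were high, while list members low in every group were not tested. The counts of higher genes in such lists are therefore given as descriptions, and a median only where few members were left out. Over all tested genes vorinostat called 16.8% higher and 13.3% lower and EC359 1.94% and 1.72%, the background of each list below. Of 15 other transcription factors linked to EMT, 11 were tested, and vorinostat called 1 higher and 5 lower, with a median log2 fold change of -1.15 beside 0.03 over all genes. The called genes of largest change were SNAI3 at 6.91 ± 0.50, FOXC1 at -2.78 ± 0.23, TWIST2 at -2.54 ± 0.31 and HMGA2 at -2.10 ± 0.21. FOXC1, a forkhead factor, went from 162 and 153 CPM in vehicle to 23.6 and 22.3 CPM under vorinostat and back to 70.0 and 100.5 CPM in the combination. HMGA2, an architectural chromatin protein, rose from 15.7 and 13.3 CPM in vehicle to 46.6 and 35.7 CPM under EC359. EC359 called HMGA2 higher and FOXC1 lower in this list (median -0.15), and both calls were lost without vehicle replicate 2 (adjusted p of 0.0142 and 0.0284, edgeR), the FOXC1 call also without vehicle replicate 1 (0.0356) or EC359 replicate 2, where the fold was just under the threshold. GSC and KLF8 had 0 counts in all libraries.

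Of 13 regulators of the epithelial state 7 were tested, and vorinostat called 5 higher and 0 lower. The levels were low: GRHL1, a grainyhead factor, went from 1.23 and 1.17 CPM in vehicle to 14.8 and 15.1 CPM under vorinostat, and RBM47, a splicing regulator, from 0.330 and 0.140 to 5.45 and 5.82 CPM. ELF3, an epithelial ETS factor, went from 2 and 3 counts to 47 and 49, and GRHL3 from 1 and 0 counts to 12 and 20. The GRHL3 call was lost whenever 1 of the 4 libraries was left out, at adjusted p of 0.0147 to 0.0332. EC359 called 0 of the 7, and 1 of them passed an adjusted p under 0.01, namely KLF4 at -0.92 ± 0.12. GRHL2 and the splicing factor ESRP1, whose loss marks mesenchymal breast lines, stayed at or below 0.283 and 1.29 CPM.

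Among 19 other cadherins 7 were tested and 13 stayed under 1 CPM in every library. Vorinostat called CDH15 higher and CDH6 lower, and EC359 called CDH6 and CDH18 lower. CDH6, an embryonic cadherin of kidney and neural crest, was at 80.8 and 78.4 CPM in vehicle, 12.04 and 9.99 CPM under EC359, 9.41 and 9.86 CPM under vorinostat, and 8.55 and 7.81 CPM in the combination. Each drug alone brought CDH6 near the level of the combination, and its interaction was 2.61 ± 0.19 (adjusted p = 1.7e-04, edgeR). CDH15, the muscle cadherin, had 0 counts in both vehicle libraries and 52 and 88 counts under vorinostat. CDH18 was at 6.89 and 7.61 CPM in vehicle and 2.72 and 1.52 CPM under EC359, a call that was lost without vehicle replicate 1 or 2 (adjusted p of 0.0196 or 0.0296).

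The catenins, which anchor cadherins to actin and keratin filaments, were split. Of 10 genes 8 were tested, and vorinostat called 1 higher and 3 lower (median 0.49). JUP, or plakoglobin, a junctional catenin of epithelia, rose from 1.65 and 1.26 CPM in vehicle to 58.6 and 55.9 CPM under vorinostat, a log2 fold change of 5.29 ± 0.21 (adjusted p = 2.2e-07, edgeR), while EC359 left it at 2.02 and 1.27 CPM. CTNNAL1 fell to -1.10 ± 0.09, PKP4 to -1.02 ± 0.12 and CTNNB1, or beta-catenin, to -1.01 ± 0.17. The PKP4 value was -0.99 without vorinostat replicate 2 and the CTNNB1 value -0.93 without vehicle replicate 2, where they were not called, and RLE scaling, DESeq2 and the stricter filter also brought both just under the fold threshold. EC359 called 0 of the 8 (median -0.19).

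Of 9 other intermediate filament genes 5 were tested, and vorinostat called 4 of them higher and 0 lower, while EC359 called 0. The neurofilament genes NEFL, NEFM and NEFH and the glial GFAP were not tested and had 0 to 2 counts in each vehicle and vorinostat library. INA, a neuronal filament, was at 32.3 and 29.6 CPM in vehicle, 89.4 and 83.2 CPM under vorinostat and 162 and 187 CPM in the combination. NES (nestin), PRPH (peripherin) and DES (desmin) started from 0 to 4 counts in vehicle and reached 99 and 148, 81 and 97, and 29 and 49 counts under vorinostat.

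The 12 corepressor and chromatin partners of SNAIL and ZEB proteins were all tested. Vorinostat called 0 higher and 3 lower (median -0.32), namely JUB, which encodes the adaptor ajuba, at -2.19 ± 0.17, CTBP2 at -1.89 ± 0.12 and SMARCA4, the BRG1 ATPase, at -1.06 ± 0.13. The SMARCA4 value was -0.96 and not called without vehicle replicate 1. EC359 called JUB lower at -1.21 ± 0.16 (median of the list 0.04), with an adjusted p of 0.0185 without vehicle replicate 2 and a log2 fold change of -0.95 without EC359 replicate 1. HDAC1 rose under vorinostat by 0.85 ± 0.08 (adjusted p = 1.9e-05, edgeR). Of 11 genes linked to the turnover or stability of SNAIL proteins 10 were tested. Vorinostat called FBXL14, an F-box protein, higher at 1.08 ± 0.19 (median of the list -0.41). The FBXL14 value was 0.90 without vehicle replicate 1, and it was called neither there nor without vorinostat replicate 2. EC359 called 0 of the 10 (median 0.17).

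Of the 20 epithelial markers 17 were tested, and vorinostat called 5 higher and 1 lower (median 2.19, with markers such as EPCAM that passed the filter through the groups with vorinostat). These 6 calls became 12 with the 4 libraries fitted alone, 11 at an adjusted p under 0.05 and 10 with a crossed replicate block, and 3 without vehicle replicate 2 or vorinostat replicate 1. EPCAM at 4.22 ± 0.99, CRB3 at 4.22 ± 0.95, LLGL2 at 3.66 ± 0.30 and OCLN at 2.19 ± 0.51 had the largest called changes. LLGL2, a polarity gene, went from 1.98 and 1.78 CPM to 23.2 and 24.3 CPM. The LLGL2 call held on leaving out any library, and the others were lost: EPCAM without either vehicle library or vorinostat replicate 1 (adjusted p of 0.0265 to 0.0379), CRB3 without vehicle replicate 2 or either vorinostat library (0.0170 to 0.0346), and OCLN without any 1 of the 4 (0.0143 to 0.0451). Of 14 mesenchymal markers beside the 10 genes, 13 were tested, and vorinostat called 1 higher and 4 lower (median -0.85). FBN1, the fibrillin gene, fell to -1.73 ± 0.12, FAP, a fibroblast protease, to -1.50 ± 0.23, the receptor AXL to -1.49 ± 0.08 and the collagen crosslinking enzyme LOX to -1.43 ± 0.10. EC359 called 1 epithelial marker, CD24, lower at -1.64 ± 0.10, while the median of the list was 0.33. DSP, not called, went the other way, from 74 and 39 counts in vehicle to 479 and 246 under EC359. The count of called markers was 2 with DESeq2 or no filter on low counts. Of the mesenchymal markers EC359 called NT5E, a surface enzyme, higher at 1.69 ± 0.09. It called S100A4 at -1.91 ± 0.27, FBN1 at -1.83 ± 0.12 and the proteoglycan gene LUM at -1.52 ± 0.27 lower. The S100A4 and LUM calls were lost without vehicle replicate 1 (adjusted p of 0.0119 and 0.0455) or 2 (0.0197 and 0.0388). The summed level of these 14 was 9183 to 9716 CPM in vehicle and 7632 to 8709 CPM under EC359. It was 5180 to 5337 CPM under vorinostat and 7318 to 7497 CPM in the combination. This sum leaves out VIM, CDH2, CDH11 and ZEB1. VIM went the other way, from a mean of 2111 CPM in vehicle to 4927 under vorinostat and 9376 CPM in the combination, so the sum does not describe all mesenchymal RNA. FN1, SPARC and LOX made up most of the sum over the 14 in vehicle, at means of 2613, 3459 and 1893 CPM. From vorinostat to the combination the mean of FN1 went from 1959 to 4486 CPM and that of LOX from 703 to 1148 CPM. Over the same groups SPARC went from 1915 to 907 CPM. AXL, THY1 and FBN1 were also lower in the combination, while NT5E and TNC were higher. The part of these lists in the values of the 10 genes was not tested.

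The tested genes with an average log2 CPM of at least 3 whose 3 log2 fold changes against vehicle lay nearest to each EMT gene were listed as a description. The nearest were MFSD1 to CDH2 and HS3ST1 to CDH11, each at a root mean square difference of 0.03, followed by VPS13B and CHKA to SNAI2 at 0.04. IER5L lay 0.07 from TWIST1, RGS3 0.07 from ZEB1, PLD6 0.12 from ZEB2, and FTH1 0.13 and JARID2 0.14 from VIM. SNAI1, PRRX1 and CDH1 had no such close neighbours: the nearest were HAP1 at 0.19, KCTD15 at 0.35 and H3F3C at 0.34. The pattern of VIM was thus matched by FTH1, the ferritin heavy chain, at 0.76, 1.03 and 2.16, and that of TWIST1 by IER5L at -0.90, -0.60 and -2.24 under EC359, vorinostat and the combination.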

How the data were processed

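RNA-seq of 8 BT-549 libraries, 2 per treatment group, was used. Per the labels and the paper's methods, the authors used single-end reads of 50 bp, aligned with TopHat2 2.0.8b to hg19, and deposited raw read counts per NCBI RefSeq gene from HTSeq, without normalization. The strand setting is not given in the sources used here. The 5 summary lines of each file were left out, and genes held 85.1% to 88.1% of unique alignments.

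Genes kept by filterByExpr were scaled by TMM (factors 0.955 to 1.03) and fitted with 1 mean per group in edgeR 4.0.16 (R 4.3.3). SE was taken from the fold change and the square root of F. All 10 members and up to 4 called genes of largest change per list, for vorinostat and EC359 against vehicle, were named, with any genes at 0 and the 2 genes nearest to each member. The members and lists were chosen with earlier results of these data known. Coordinates and transcript lengths came from GENCODE v44 on GRCh37, and 5 listed symbols (DUB3, ZEB2-AS1, VIM-AS1, SNAI3-AS1, TWIST1-AS1) were not found in the counts.

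The alternatives included 4-library fits, other filters and thresholds, RLE and total-count scaling, DESeq2 1.42.0, a replicate block and leaving out each library. With a library left out, the lone sample is assumed to vary like the other groups. On simulated data 82.1% of 196 genes with a log2 change of 1.5 were recovered for vorinostat against vehicle and 75.0% for the interaction. Among 13395 genes, 2 and 6 others were called. The simulation gave all groups the same spread for a gene, while the real EC359 replicates differed most (SD of 0.563). These rates therefore cannot be carried over to comparisons with EC359, the interaction included.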

Additional observations from a re-analysis of the deposited data

Results flagged for a closer look

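Among the 10 EMT genes and the genes of the other lists, 8 had an effect of EC359 that differed between cells with and without vorinostat, by the interaction term of edgeR's quasi-likelihood test at an adjusted p under 0.01. Over all tested genes 222 passed as higher (1.62%) and 66 as lower (0.482%). SNAI1 fell under EC359 alone and did not fall when vorinostat was present, an interaction of 1.88 on the log2 scale. The largest value was that of FOXC1 at 3.18, which EC359 lowered alone and raised on top of vorinostat by 1.89 ± 0.22 (adjusted p = 5.0e-04), a call lost without vorinostat replicate 2 (adjusted p of 0.0113). CDH6 at 2.61 was lowered by EC359 alone. KLF4, an epithelial zinc finger factor, was at 1.95, going from 66.8 and 66.8 CPM in vehicle to 32.1 and 38.5 CPM under EC359, and from 52.3 and 45.4 CPM under vorinostat to 102 and 98.0 CPM in the combination. SYNM, an intermediate filament gene, was at 1.48, FN1, the fibronectin gene, at 1.30, CD24, a surface glycoprotein gene, at 1.29 and CTNNAL1 at 0.75. The FOXC1, CDH6 and KLF4 interactions passed in every alternative run. The SYNM and CD24 calls were each lost on leaving out 5 of the 8 libraries, with an adjusted p of up to 0.0273 and 0.0217. The FN1 call was lost without any 1 of the vehicle, vorinostat or combination libraries, with an adjusted p of up to 0.0351. The CTNNAL1 call was lost without the same libraries, with RLE scaling and with the replicate block, with an adjusted p of up to 0.106.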

How the results depend on the processing

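Of the values that the alternatives gave for the 10 genes, 691 kept their direction and stayed called or uncalled. Of the rest, 24 lost a call, 11 gained one and 15 changed sign, the cause of which was not tested. A value under the fold threshold counted as kept even where its adjusted p no longer passed. Among such values were those of SNAI2 and CDH2 in the combination against vehicle. Others were those of ZEB1 and CDH11 in the combination against vorinostat. In EC359 against vehicle the count of called genes went from 3 to 5 with no fold threshold, to 0 with the 4 libraries fitted alone, and to between 0 and 3 on leaving out a library, with 0 without either vehicle library. In the combination against vorinostat it went from 1 to 2 with DESeq2, no filter on low counts, an adjusted p under 0.05 or the 4 libraries, and to 4 with no fold threshold. The interaction count went from 1 to 0 with the replicate block. It also moved on leaving out a library, where the spread of the lone library is not measured. The counts of the other 3 comparisons stayed within 1.5 times. The replicate block changed no other call of the 10 genes. The deviations of same-numbered libraries correlated at -0.17 to 0.23 between groups. With 1 replicate difference per group, these correlations cannot tell whether libraries of the same number shared a batch. A block that crossed the replicate numbers was chosen after seeing the data and called 2 genes in the combination against vorinostat.

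Values that changed sign on leaving out a library were not called. They ranged from -0.0001 to 0.27 for SNAI1 and from -0.0014 to 0.0164 for CDH2 in the combination against vorinostat (-0.0410 for CDH2 with total counts), and from -0.23 to 0.15 for CDH2 in the combination against EC359. Under EC359 against vehicle they ranged from -0.56 to 0.21 for SNAI2, -0.10 to 0.52 for PRRX1 and -0.0506 to 0.46 for CDH1. For CDH1 they ranged from -2.26 to 1.40 in the combination against vehicle and from -2.47 to 1.19 against EC359. For the interaction they ranged from -0.13 to 0.79 for ZEB2 and from -0.16 to 0.45 for PRRX1. The CDH1 values rest on 43 counts or fewer in a library and on replicates that differed widely. Among the lists against vehicle, other settings moved the count of called cadherins under vorinostat from 2 to 4 or 5, of catenins from 4 to 2, of epithelial markers from 6 to between 3 and 12, and of mesenchymal markers under EC359 from 4 to 2. No scaling moved the median of all genes by over 0.1.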
